A study of Mus musculus with 4 samples.

Results

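Gad1, Gad2, Slc32a1 and Slc17a6 are the genes by which a neuron is recognised as GABAergic or glutamatergic, and their UMIs (unique molecular identifiers, each counting 1 captured RNA molecule) were followed across the neurons of tissue dissected as the developing arcuate nucleus (ARC). These 4 genes, of 27998 listed, were taken by name. All 4 were detected. Single cells came from the pooled ARC of Pomc-eGfp embryos of strain C57BL/6 at E15 (the sample titles give E15.5), where the green fluorescence driven by Pomc guided the dissection, and were sequenced as 1 droplet library in 4 runs. All cells share this genotype and there is no untreated or mutant group, so that the comparisons run between groups of cells of 1 library. Neurons were the 4006 of 6351 kept cells with at least 2 UMIs of Stmn2, a regulator of microtubules in growing neurons. The neuronal tubulin Tubb3 was found in 97.4% of them and Nkx2-1, a factor of the ventral hypothalamic field that includes the ARC, in 31.8%. The neurons were therefore not all shown to be of the ARC, and marker genes of the ventromedial hypothalamus, habenula and thalamus were also found, as given below.

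GABA, the main inhibitory transmitter, is made from glutamate by glutamate decarboxylase, of which Gad1 and Gad2 encode the 2 forms. Slc32a1 encodes the transporter that loads GABA into synaptic vesicles, and Slc17a6 encodes VGLUT2, the transporter that loads glutamate into the vesicles of most excitatory neurons of the hypothalamus and thalamus. In the adult ARC, Agrp-neurons are GABAergic, whereas Pomc-neurons include cells of either type. In the text, a GABAergic neuron has at least 1 UMI of Gad1, Gad2 or Slc32a1, and a glutamatergic neuron has at least 1 UMI of Slc17a6. The first class thus rests on 3 genes and the second on 1, and a neuron with no UMI of any of them is not shown to lack a transmitter.

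On GRCm38, all 4 genes are on the forward strand, and 3 are on chromosome 2. Gad2 spans 22622205 to 22693874, Gad1 70553072 to 70602014 and Slc32a1 158610767 to 158615748 of that chromosome, and Slc17a6 spans 51622006 to 51671119 of chromosome 7. The sequences before their start sites (RefSeq, GRCm38.p6) are shown because the 3 GABAergic genes were detected together, mostly in other cells than Slc17a6. Each line gives up to 250 bases before a start site, forward strand, 5′ to 3′, without the bases that GENCODE places in an exon of the gene, and capitals mark CpG dinucleotides. The Gad1 line is chr2:70561879-70562041, inside the gene as GENCODE draws it. The Gad2 line is chr2:22622077-22622204 and the Slc32a1 line chr2:158610508-158610757, both before the gene. Slc17a6 has 2 listed start sites, with the lines chr7:51621580-51621829, before the gene, and chr7:51624387-51624636, between exons.
Gad1: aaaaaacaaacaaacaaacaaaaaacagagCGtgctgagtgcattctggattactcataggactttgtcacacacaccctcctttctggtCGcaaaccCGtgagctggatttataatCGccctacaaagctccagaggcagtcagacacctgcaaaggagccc
Gad2: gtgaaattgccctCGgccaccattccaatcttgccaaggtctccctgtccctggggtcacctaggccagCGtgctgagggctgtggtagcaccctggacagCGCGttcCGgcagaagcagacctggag
Slc32a1: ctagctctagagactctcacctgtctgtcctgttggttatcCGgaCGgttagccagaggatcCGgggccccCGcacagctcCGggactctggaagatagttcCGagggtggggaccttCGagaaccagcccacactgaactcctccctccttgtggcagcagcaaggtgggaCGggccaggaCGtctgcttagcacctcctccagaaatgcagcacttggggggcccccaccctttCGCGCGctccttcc
Slc17a6, site 1: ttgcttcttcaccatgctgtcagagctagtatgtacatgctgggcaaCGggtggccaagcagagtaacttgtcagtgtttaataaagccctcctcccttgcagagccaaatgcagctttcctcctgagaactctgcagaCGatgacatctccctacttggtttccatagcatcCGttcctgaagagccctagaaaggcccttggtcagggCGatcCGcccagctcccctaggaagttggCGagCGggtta
Slc17a6, site 2: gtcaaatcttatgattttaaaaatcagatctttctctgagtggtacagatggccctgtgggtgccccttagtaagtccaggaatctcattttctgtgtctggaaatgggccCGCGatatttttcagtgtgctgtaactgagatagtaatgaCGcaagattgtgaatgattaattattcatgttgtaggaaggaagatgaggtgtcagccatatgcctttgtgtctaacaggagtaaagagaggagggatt
The whole 250-base windows held 17 CpG for Gad1, 13 for Gad2 and 12 for Slc32a1, compared with 7 and 3 for Slc17a6 and a median of 6 over the 32807 windows of the table. On either strand, the letters TAATTA, the core that many homeodomain factors bind, were found in the second Slc17a6 window alone, 81 bases before the start, and in 4.85% of all windows. CAGCTG, a form of the E-box bound by basic helix-loop-helix factors, was found in none of the 5 windows and in 13.0% of all windows. No motif of this kind was thus shared by the 3 GABAergic genes, which says only that these letters are not in these windows.

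The 4 transcripts were scarce but mostly neuronal. Slc17a6 had 963 UMIs in the kept cells, Gad2 420, Slc32a1 402 and Gad1 269, and 94.2% (Slc17a6), 81.9% (Gad2), 86.3% (Slc32a1) and 89.2% (Gad1) of these UMIs were in neurons. Slc17a6 was found in 714 neurons, Slc32a1 in 293, Gad2 in 286 and Gad1 in 204. From 80.0% (Slc17a6) to 84.6% (Gad2) of the neurons with a given gene had a single UMI of it, and the highest count in a neuron was 5. Detection in a cell therefore rests mostly on 1 molecule.

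Of the 4006 neurons, 653 (16.3%, exact binomial 95% interval 15.2 to 17.5%) were GABAergic and 714 (17.8%, 16.6 to 19.0%) were glutamatergic. The 2 classes were thus of about the same size in the dissected tissue as a whole, which is not a value for the ARC alone, and 2682 neurons (66.9%) had a UMI of neither. In 228 non-neural cells, marked by genes of fibroblasts, vessels or macrophages, 3 cells (1.32%) had a GABAergic gene and 2 (0.877%) had Slc17a6, at a median of 3706.5 UMIs compared with 3408.5 in neurons. Gad2 was found in none of these 228 cells, which allows a share of up to 1.32% with 3 cells as the floor (exact interval up to 1.60%). These shares give the background in cells that should lack the genes, the source of which was not tested, and the intervals here and below cover counting error only, since all cells share 1 library.

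GABAergic neurons were shallower than glutamatergic ones. The 610 neurons with GABAergic genes alone had a median of 2923.5 UMIs, and the 671 with Slc17a6 alone had 4130. When each cell was thinned to 2167 UMIs, which left out 280 shallower neurons, GABAergic genes were found in 12.1% (11.1 to 13.2%) and Slc17a6 in 10.9% (9.89 to 11.9%). Here and below, the neuron limit, the marker groups and the classes by Stmn2 or depth were set on all UMIs of a cell, before thinning. The order of the shares of the 2 classes was therefore reversed at equal depth, and neither class can be called the larger.

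The 3 GABAergic genes were found together more often than independent detection would give, and with Slc17a6 less often over all neurons. Gad1 and Gad2 shared 38 neurons (14.6 if independent, ratio 2.61, Poisson interval 1.85 to 3.58), Gad1 and Slc32a1 45 (ratio 3.02, 2.20 to 4.04) and Gad2 and Slc32a1 60 (ratio 2.87, 2.19 to 3.69). Slc32a1 shared 11 neurons with Slc17a6 (ratio 0.211, 0.105 to 0.377), Gad1 shared 10 (ratio 0.275, 0.132 to 0.506) and Gad2 shared 25 (ratio 0.490, 0.317 to 0.724). When expected numbers were taken within sets of neurons that carry the same marker genes (described below), the ratios of the first 3 pairs fell to 1.43 (1.01 to 1.97), 1.52 (1.11 to 2.04) and 1.53 (1.17 to 1.98). Those with Slc17a6 were then 0.560 for Slc32a1 (lower bound 0.279, upper bound next to no difference), 0.652 for Gad1 (0.313 to 1.20) and 0.929 for Gad2 (0.602 to 1.37), and the last 2 intervals included no difference. Of the 653 GABAergic neurons, 536 had just 1 of the 3 genes, 104 had 2 and 13 had all 3. The enzymes and the vesicular transporter were thus rarely captured in the same cell, even where they were found in the same groups of cells.

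In total, 43 neurons (1.07%, 0.778 to 1.44%) had a GABAergic gene and Slc17a6, compared with 116 if detection were independent (ratio 0.369, 0.267 to 0.498). When expected numbers were taken within 10 classes of UMI depth, the ratio was 0.447 (0.323 to 0.602). Within the sets of the same markers it was 0.806 (0.583 to 1.09), an interval that included no difference. In the 1042 neurons with none of the markers the deficit exceeded counting error, with 7 double-positive cells compared with 24.2 if independent (ratio 0.290, 0.116 to 0.597). Gad2 was the only GABAergic gene in 23 of the 43 cells, 30 were deeper than the median neuron, and only 1 had at least 2 UMIs of Slc17a6 and of a GABAergic gene. Whether any of these barcodes held 2 cells was not tested.

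Marker genes divided the neurons by transmitter class. The groups, which can share cells, were 508 neurons with Dlx1 or Dlx2 (homeodomain factors of GABAergic forebrain neurons), 750 with Otp (a homeodomain factor of hypothalamic neurons, Agrp- and Sst-neurons among them), 263 with at least 3 UMIs of Pomc, 1087 with at least 2 UMIs of Nhlh2 (a basic helix-loop-helix factor of maturing neurons), 609 with Fezf1 or Nr5a1 (factors of the ventromedial hypothalamus), 394 with Robo3 (an axon guidance receptor found in habenular neurons), 98 with Gbx2 (a factor of thalamic neurons) and 1042 with none of these. Of the neurons, 659 (16.5%) were in 2 or more groups, and 246 Robo3 neurons (62.4%) were also Nhlh2 neurons.

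Among neurons with UMIs of 1 class only, the GABAergic share was 95.3% in the Dlx group (202 of 212, interval 91.5 to 97.7%) and 90.4% in the Otp group (254 of 281, 86.3 to 93.6%). It was 10.8% in the Robo3 group (5.90 to 17.8%), 9.89% in the Fezf1 or Nr5a1 group (5.97 to 15.2%), 9.75% in the Nhlh2 group (6.89 to 13.3%) and 3.70% in the Gbx2 group (1 of 27, 0.0937 to 19.0%). The Dlx and Otp groups did not differ beyond their intervals, nor did the last 4 from each other, but every interval of the first pair lay far above those of the last 4. Between them were the Pomc group with 41.7% (20 of 48, 27.6 to 56.8%) and the neurons with no marker with 53.3% (162 of 304, 47.5 to 59.0%). In all neurons the share was 47.6%. At equal depth the shares were 97.4% (Dlx), 92.9% (Otp), 56.0% (no marker), 50.0% (Pomc), 14.6% (Fezf1 or Nr5a1), 12.2% (Robo3), 10.0% (Nhlh2) and 0% (Gbx2, 0 of 20, interval up to 16.8%). The contrast between the groups was thus kept when the transmitter genes were counted at equal depth, in groups set on all UMIs. When 2 of the 3 GABAergic genes were asked for, the GABAergic class was smaller and the neurons with Slc17a6 were the same, but more of them counted as glutamatergic only. The share was then 56.6% in the Otp group, 17.7% with no marker and 2.63% or below in the Robo3, Fezf1 or Nr5a1, Nhlh2 and Gbx2 groups.

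**Figure D1:**
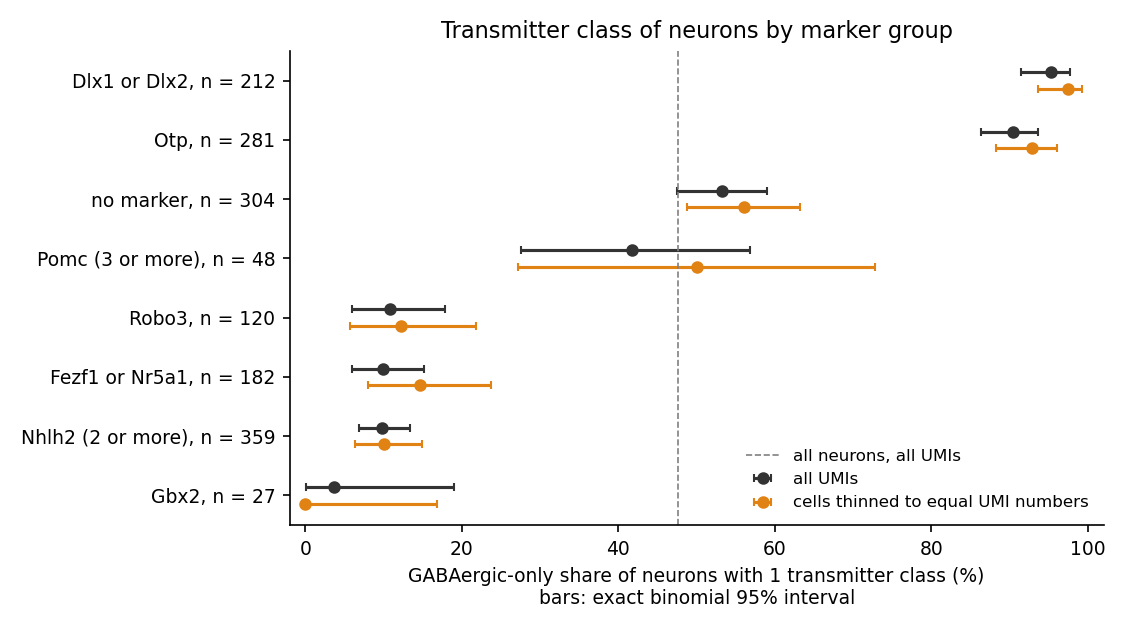
Share of GABAergic-only neurons (x axis, %) among the neurons with UMIs of 1 transmitter class, by marker group (y axis, with the number of such neurons before thinning), before (black) and after (orange) thinning each cell to the same number of UMIs. Bars are exact binomial 95% intervals and the dashed line is the share in all neurons, 47.6%. The Dlx and Otp groups lie at 95.3% and 90.4%, the Robo3, Fezf1 or Nr5a1, Nhlh2 and Gbx2 groups between 3.70 and 10.8%.

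Levels, as the summed UMIs of a group scaled to its total UMIs (CPM, counts per 1e6), gave the same division for each gene. Slc32a1 was at 69.4 CPM in the Dlx group (exact Poisson interval 57.5 to 82.9) and 59.0 CPM in the Otp group (50.0 to 69.2), followed by 22.5 in neurons with no marker, and was at 6.70 CPM or below in the other groups. Gad2 was at 67.6 CPM in the Dlx group (55.9 to 81.1), 51.6 in the Otp group (43.2 to 61.2) and 25.9 with no marker, and at 9.68 CPM or below in the others. Gad1 had the same order, with 52.0 CPM in the Dlx group (41.8 to 64.0), 34.6 in the Otp group (27.7 to 42.5) and 16.6 with no marker. For each of the 3, the intervals of the Dlx and Otp groups overlapped, and those of both groups lay above that of the neurons with no marker.

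Slc17a6 was highest where the GABAergic genes were low, except in the Pomc group, which was low for all 4 genes. It was at 106 CPM in the Gbx2 group (75.2 to 145), 90.5 in the Nhlh2 group (82.2 to 99.5), 90.3 in the Robo3 group (76.3 to 106) and 72.6 in the Fezf1 or Nr5a1 group (63.1 to 83.0), then 48.4 with no marker, 26.1 in the Pomc group (18.2 to 36.3), 18.6 in the Otp group (13.7 to 24.7) and 16.2 in the Dlx group (10.8 to 23.4). The intervals of neighbours in this order overlapped, except for those of the Fezf1 or Nr5a1 group and the neurons with no marker, and of these and the Pomc group. In the non-neural cells Slc17a6 was at 2.04 CPM (0.247 to 7.36), Slc32a1 at 2.04, Gad1 at 1.02 and Gad2 at 0. The Slc17a6 level of the Otp group was 9.15-fold that of the non-neural cells (log2 ratio 3.19, interval 1.26 to 6.28), and that of the Dlx group 7.94-fold (log2 ratio 2.99, with a lower bound above 0 and an upper bound of 6.10). Much of this level was in cells with a single UMI of the marker or with the marker of another group. In the 552 neurons with at least 2 UMIs of Otp, Slc17a6 was at 9.62 CPM (log2 ratio 2.24, 0.18 to 5.39), and in the 567 Otp neurons with no other marker at 8.44 CPM, an interval that included no difference (log2 ratio 2.05, -0.05 to 5.22). In the 207 neurons with at least 2 UMIs of Dlx1 or of Dlx2, Slc17a6 was at 11.3 CPM (log2 ratio 2.47, 0.14 to 5.74). In the 375 Dlx neurons with no other marker it was at 4.42 CPM, and the interval included no difference (log2 ratio 1.12, -1.49 to 4.51).

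**Figure D2:**
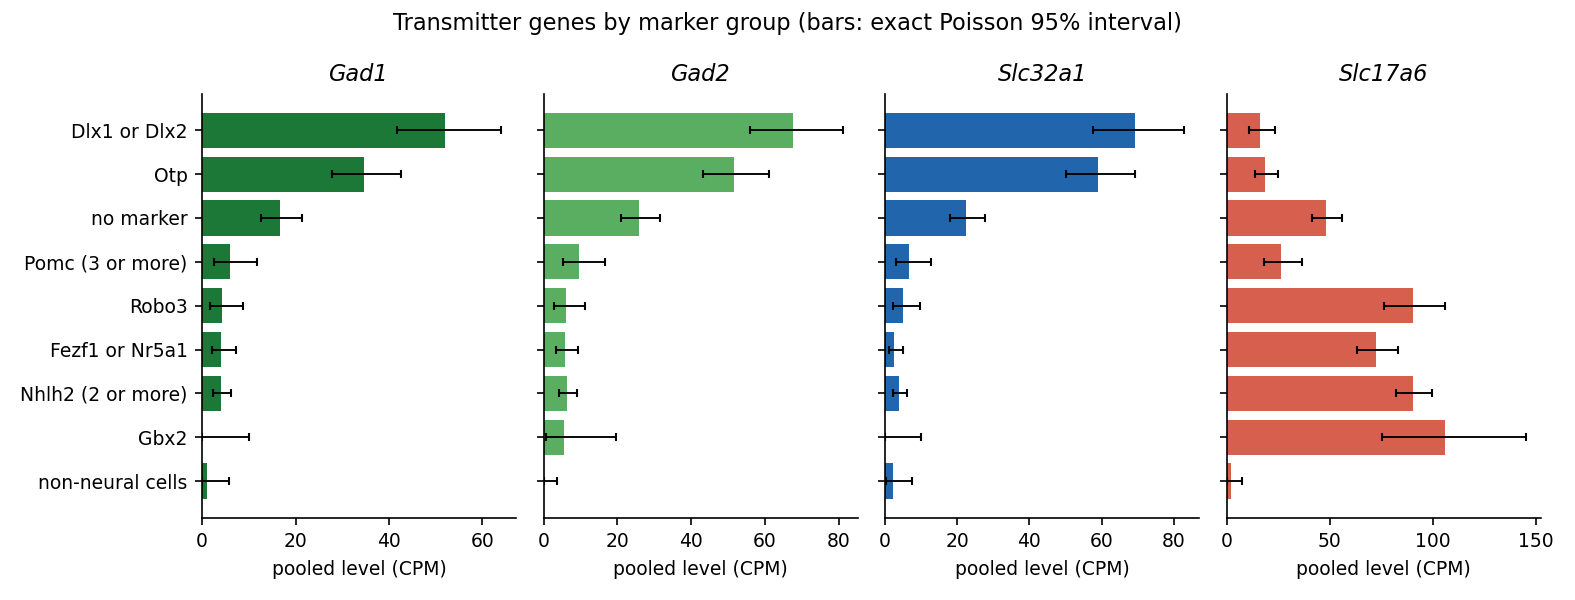
Pooled level (x axis, CPM) of each of the 4 genes (panels, each with its own scale) in the marker groups and the non-neural cells (y axis). Bars are exact Poisson 95% intervals. The GABAergic genes are highest in the Dlx and Otp groups, where Slc32a1 is at 69.4 and 59.0 CPM, and Slc17a6 is highest in the Gbx2, Nhlh2 and Robo3 groups, at 90.3 to 106 CPM.

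A GABAergic gene was found in 4.42% of Nhlh2 neurons (3.27 to 5.81%), 4.27% of Fezf1 or Nr5a1 neurons and 4.31% of Robo3 neurons, compared with 1.32% of the non-neural cells. At equal depth these shares were 2.18%, 2.56% and 2.57%, within the interval of the non-neural cells, which rests on 1 of 207 cells (0.483%, 0.0122 to 2.66%), and above that of 613 cells with pituitary genes (0.979%, 0.360 to 2.12%). The intervals of the 3 shares reached down to 1.38%, 1.44% and 1.24%, and overlapped both. Slc32a1 in the Nhlh2 group, at 3.77 CPM, was 1.85-fold the level of the non-neural cells with an interval that included no difference (log2 ratio 0.89, -1.17 to 4.04), whereas Gad2 had 30 UMIs in the Nhlh2 group and 0 in the non-neural cells. The lower bound of the log2 ratio of Gad2 was 0.65 in the Nhlh2 group, 0.48 in the Fezf1 or Nr5a1 group and 0.42 in the Robo3 group. These groups share cells with others: in the 619 Nhlh2 neurons with no other marker, Gad2 had 10 UMIs (3.98 CPM, 1.91 to 7.32) and the lower bound was -0.19, which includes no difference from the non-neural cells.

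Within the Otp neurons, the peptide genes marked cells without Slc17a6. Among Otp neurons with Npy or Agrp, the peptides of Agrp-neurons, 53 of 149 were GABAergic only and 0 were glutamatergic only (share 100%, interval 93.3 to 100%). Otp neurons with Sst (somatostatin) and without Npy or Agrp gave 65 and 0 of 157. The 444 Otp neurons without any of these peptides gave 136 and 27 (83.4%, 76.8 to 88.8%), and held 46 of the 48 Slc17a6 UMIs of the Otp group. Slc17a6 was at 30.2 CPM in them, compared with 1.76 CPM with Npy or Agrp (log2 ratio of the latter -4.10, interval -9.43 to -1.55) and 2.06 CPM with Sst (log2 ratio -3.88, -9.21 to -1.33). Each of the 2 peptide groups had 1 UMI of Slc17a6, a level near the 2.04 CPM of the non-neural cells. Most of the 27 glutamatergic-only cells had a single UMI of Otp or the marker of another group. With at least 2 UMIs of Otp, the Otp neurons without the peptides gave 98 and 6 (94.2%) and Slc17a6 was at 17.5 CPM, compared with 1.91 CPM with Npy or Agrp (log2 ratio -3.20, -8.59 to -0.51) and 2.32 CPM with Sst (log2 ratio -2.92, -8.31 to -0.23). With no other marker, Slc17a6 was at 14.9 CPM without the peptides, 0 with Npy or Agrp (upper bound of the log2 ratio -0.65) and 2.57 CPM with Sst (log2 ratio -2.54, -7.94 to 0.18), and the last interval included no difference.

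Gad2 was low in the Otp neurons with Npy or Agrp, while Gad1 and Slc32a1 were not. Gad2 had 13 UMIs in these 149 neurons, 22.9 CPM (12.2 to 39.2), compared with 37 UMIs and 76.0 CPM (53.5 to 105) in the 157 Otp neurons with Sst, a 3.32-fold difference (log2 ratio -1.73, interval -2.77 to -0.78). Compared with the Otp neurons without these peptides (54.5 CPM), the log2 ratio was -1.25 (-2.22 to -0.40). Gad1 was at 49.4 CPM with Npy or Agrp and at 47.3 with Sst (log2 ratio 0.06, -0.78 to 0.93), and Slc32a1 at 61.7 and 84.3 CPM (log2 ratio -0.45, -1.14 to 0.24). Compared with the neurons without the peptides (25.0 CPM), Gad1 was 1.98-fold higher with Npy or Agrp (log2 ratio 0.98, 0.23 to 1.73) and 1.89-fold higher with Sst (0.92, 0.11 to 1.71). With at least 2 UMIs of Otp, the log2 ratios were 0.86 (0.03 to 1.69) and 0.84 (-0.05 to 1.72). With no other marker they were 0.83 (-0.08 to 1.72) and 0.72 (-0.26 to 1.66), and both of these last intervals included no difference. The share of neurons with Gad2 was 6.04% with Npy or Agrp and 18.5% with Sst, or 3.47% and 13.7% at equal depth.

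Gad2 was highest in neurons with both factors. In the 84 neurons with both Otp and Dlx1 or Dlx2, Gad2 had 40 UMIs and was at 129 CPM (92.3 to 176). It was at 41.0 CPM in Otp neurons without Dlx (log2 ratio of the former 1.65, 1.08 to 2.20) and at 54.2 CPM in Dlx neurons without Otp (log2 ratio 1.25, 0.66 to 1.82). In the same comparisons Gad1 and Slc32a1 differed by at most 1.48-fold, with intervals that included no difference. Gad1, in turn, was 1.62-fold higher in Dlx neurons without Otp than in Otp neurons without Dlx (52.8 and 32.7 CPM, log2 ratio 0.69, 0.21 to 1.18), whereas for Gad2 the interval of that comparison included no difference (log2 ratio 0.40, -0.05 to 0.85). Slc32a1 ranged from 49.9 to 84.3 CPM in the 6 groups plotted.

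**Figure D3:**
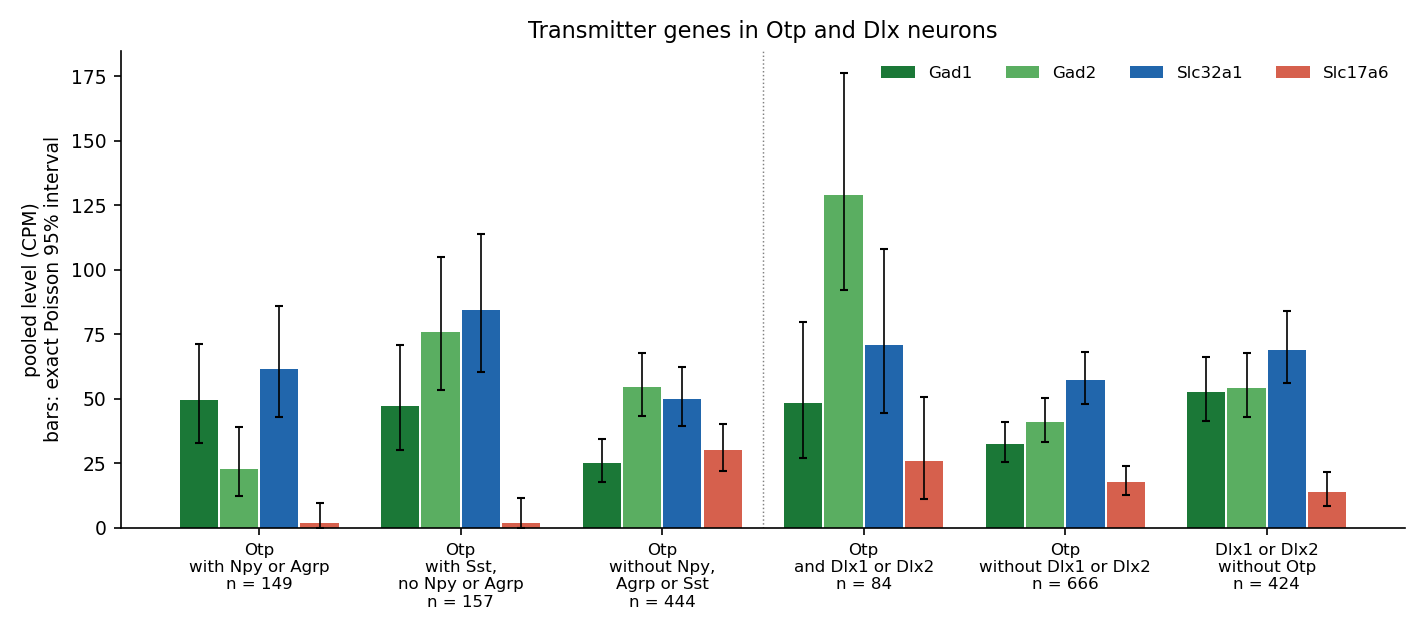
Pooled level (y axis, CPM) of the 4 genes in subgroups of Otp and Dlx neurons (x axis, with the number of neurons). The 3 groups left of the dotted line divide the Otp neurons by peptide genes and the 3 on the right divide Otp and Dlx neurons by their overlap, so that the same cells appear on both sides. Bars are exact Poisson 95% intervals. Gad2 is at 22.9 CPM in Otp neurons with Npy or Agrp and 129 CPM in neurons with Otp and Dlx1 or Dlx2.

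Other GABAergic subgroups were found by Ghrh, Th and Lhx1. Of 49 neurons with at least 2 UMIs of Ghrh (growth hormone-releasing hormone), 22 were GABAergic only and 0 glutamatergic only, and Slc32a1 was at 107 CPM (63.6 to 169.6). Neurons with Th (tyrosine hydroxylase, of dopamine synthesis) and without Ghrh gave 48 and 7 of 118 (87.3%, 75.5 to 94.7%). Neurons with Lhx1, a LIM-homeodomain factor, gave 82 and 6 of 204 (93.2%, 85.7 to 97.5%). The 34 neurons with Tac2 (neurokinin B, of Kisspeptin-neurons) gave 3 and 7 (30.0%, 6.67 to 65.2%). Slc17a6 was at 86.4 CPM in them, with an interval against all other neurons that included no difference (log2 ratio 0.56, -0.50 to 1.45). The interval of the Tac2 share is wide and includes the share of all neurons.

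The Pomc group had little of any of the 4 transcripts. Of its 263 cells, 22 (8.37%, 5.32 to 12.4%) were GABAergic, 30 (11.4%, 7.83 to 15.9%) glutamatergic and 213 (81.0%, 75.7 to 85.5%) neither, although their median of 4565 UMIs was above that of any other marker group. Slc17a6 was at 26.1 CPM, below the 61.8 CPM of all other neurons (log2 ratio -1.25, -1.78 to -0.76), and Gad1, Gad2 and Slc32a1 were at 5.96, 9.68 and 6.70 CPM, each below that of all other neurons. Slc17a6 was still above the non-neural cells (log2 ratio 3.68, 1.72 to 6.78), as was Gad2 (13 UMIs compared with 0, lower bound 1.16), whereas for Gad1 and Slc32a1 the intervals included no difference. Since Pomc is also a gene of the pituitary, 10 pituitary genes were counted in the group. Of the 263 cells, 19 had at least 3 of them and 44 had at least 1 other than Six6, which hypothalamic cells also use, with Pitx1 in 18, Lhx3 in 16, Tbx19 in 13, Cga in 12 and Pou1f1 in 9. In the 19 cells Tubb3 was found in 11 and Nkx2-1 in 2, so that they were not shown to be neurons. In the 219 cells without these genes, Tubb3 was found in 99.1% and Nkx2-1 in 68.0%. Of these 219, 17 (7.76%) were GABAergic, 24 (11.0%) glutamatergic and 179 (81.7%, 76.0 to 86.6%) neither. Slc17a6 was at 27.5 CPM in them (18.4 to 39.4), and all 4 genes were below the level of all other neurons there too. In the 84 neurons with Pomc and Nhlh2, Slc17a6 was at 22.8 CPM, compared with 98.1 CPM in Nhlh2 neurons without Pomc, 4.30-fold lower (log2 ratio -2.10, -3.12 to -1.25). Gad1 went the other way, with 6 UMIs and 12.4 CPM compared with 3.03 CPM (log2 ratio 2.04, 0.36 to 3.53). For Gad2 and Slc32a1 the intervals included no difference. The GABAergic share of single-class cells was 55.6% (10 of 18, 30.8 to 78.5%) with Pomc and 7.33% (25 of 341, 4.80 to 10.6%) without. The balance within the Pomc group was not settled by these data: in place of 41.7%, the GABAergic share was 21.1% when Slc32a1 alone stood for the GABAergic genes and 9.09% when 2 of the 3 genes were asked for, and was 54.5% (12 of 22, 32.2 to 75.6%) in neurons with at least 10 UMIs of Pomc.

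Of the 1272 neurons with Nkx2-1, 158 were GABAergic only and 195 glutamatergic only (44.8%, 39.5 to 50.1%). Without those that carried Fezf1 or Nr5a1, the share was 63.7% (149 of 234, 57.2 to 69.8%), and in the 479 neurons with Tbx3, a T-box factor of ARC neurons, it was 79.0% (113 of 143, 71.4 to 85.4%). The 3 groups share cells, and the second share had to be higher than the first, since the cells left out are of a group at 9.89%.

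Transmitter genes were also compared by Stmn2 count, a gene whose level is known to rise as neurons grow their processes. Over all neurons, the GABAergic share of single-class cells was 80.5% with 2 to 3 UMIs of Stmn2 (74.3 to 85.8%), 61.1% with 4 to 7 (56.2 to 65.8%) and 29.6% with 8 or more (26.1 to 33.2%), and at equal depth 80.6, 65.3 and 33.7%. The 3 classes were set before thinning, and their median depth was 2625, 3004 and 4170.5 UMIs. Within the marker sets, the genes of a set's own class differed less. In neurons with Nhlh2, Fezf1, Nr5a1, Robo3 or Gbx2 and without Dlx or Otp, Slc17a6 was at 88.6 CPM (62.4 to 122) with 2 to 3 UMIs of Stmn2 and at 87.6 CPM (79.8 to 96.0) with 8 or more (log2 ratio -0.02, -0.50 to 0.51). In Dlx or Otp neurons, the 3 GABAergic genes differed by at most 1.27-fold between these classes, with intervals that included no difference. Slc32a1 was at 74.0 CPM in the class between them, with 4 to 7 UMIs, and was lower with 8 or more (50.9 CPM, log2 ratio -0.54, -0.98 to -0.10). The classes held different groups of neurons: 369 Dlx or Otp neurons and 136 of the other set had 2 to 3 UMIs, and 329 and 1105 had 8 or more.

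Slc17a6 in the Dlx or Otp neurons was the exception. It was at 1.96 CPM (0.237 to 7.07) with 2 to 3 UMIs of Stmn2, 9.59 CPM (5.24 to 16.1) with 4 to 7 and 34.4 CPM (25.7 to 45.1) with 8 or more, a 17.6-fold difference between the last and the first (log2 ratio 4.13, 2.21 to 7.22). At equal depth it was found in 0%, 0.935% and 6.13% of these neurons. In the Dlx or Otp neurons with no other marker, which had under 3 UMIs of Pomc, under 2 of Nhlh2 and none of Fezf1, Nr5a1, Robo3 or Gbx2, Slc17a6 had 0 UMIs in 347 neurons, 5 in 437 (3.89 CPM) and 20 in 232 (21.8 CPM, 13.3 to 33.6), so that the order held there too. At equal depth it was found in 0%, 0.771% and 3.93% of them. Their median depth before thinning also rose, from 2541 to 2800 and 3620 UMIs. The part of depth, of markers that were missed or of 2 cells in 1 barcode in this order was not tested. Among Dlx or Otp neurons with 8 or more UMIs of Stmn2, the 97 with another marker had 53.9 CPM, 2.48-fold that of the 232 without (log2 ratio 1.31, 0.46 to 2.19), and lower Gad1, Gad2 and Slc32a1. Their median of 5722 UMIs was above the 3620 of the others, and the part of depth or of 2 cells in 1 barcode in this difference was not tested.

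**Figure D4:**
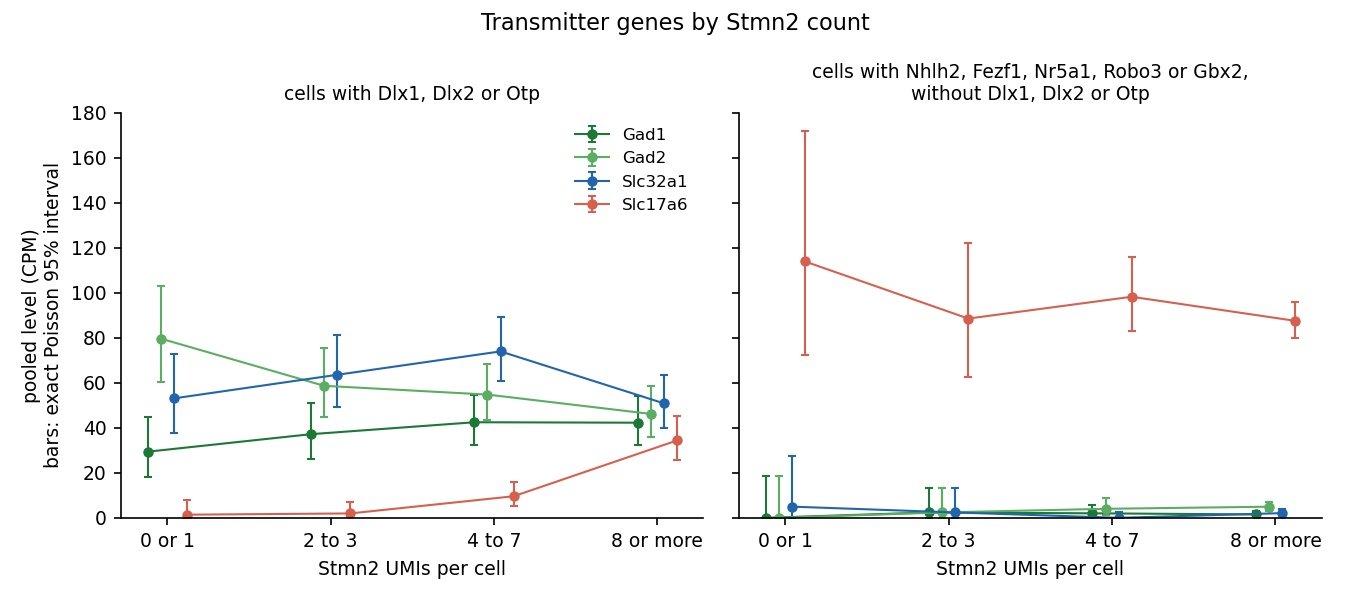
Pooled level (y axis, CPM) of the 4 genes by the number of Stmn2 UMIs in the cell (x axis), in cells with Dlx1, Dlx2 or Otp (left) and in cells with a marker of the other groups and none of these (right). Cells with 0 or 1 UMI of Stmn2 are those on no list of other cell types, bars are exact Poisson 95% intervals, and lines join the same gene. On the left Slc17a6 goes from 1.96 CPM at 2 to 3 UMIs to 34.4 CPM at 8 or more, and on the right it is at 88.6 and 87.6 CPM.

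The transmitter genes were also found in cells below the neuron limit. Of 698 cells with 0 or 1 UMI of Stmn2 that matched no list of other cell types, 100 (14.3%, 11.8 to 17.1%) were GABAergic and 27 (3.87%, 2.56 to 5.58%) glutamatergic. Tubb3 was found in 64.8% of them and Dcx, a gene of young neurons, in 42.6%, compared with 97.4% and 75.7% of the neurons, at a median of 2543 UMIs. They were therefore not shown to be younger than the cells above the limit. Gad2 had 63 UMIs in them (32.5 CPM), Slc32a1 46 (23.8 CPM) and Gad1 23 (11.9 CPM). In 613 cells with progenitor genes and no UMI of the division genes Mki67 and Top2a, Gad2 was at 4.15 CPM (log2 ratio of the former 2.97, 1.91 to 4.25), Slc17a6 at 3.63 CPM, Slc32a1 at 0.518 CPM and Gad1 at 0 of 613 cells, which allows up to 0.489% by the same floor. In the 183 progenitor cells with a division gene, Gad1 had 2 UMIs. The division by marker was present here as well: of the 698, the 283 with Dlx or Otp gave 87 GABAergic-only and 0 glutamatergic-only cells, and the 65 with a marker of the other set gave 1 and 17. In the latter Slc17a6 was at 114 CPM (72.6 to 172), and in the 283 cells Gad2 was at 79.7 CPM (60.4 to 103). Both intervals overlapped those of the neurons with 2 to 3 UMIs of Stmn2 in the same sets (88.6 and 58.7 CPM).

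Genes were then compared between the 610 GABAergic-only and the 671 glutamatergic-only neurons by the log2 ratio of CPM. Called means at least 2-fold with an interval that leaves out no difference. Of 10524 genes with at least 20 UMIs, 289 (2.75%) were called higher in GABAergic-only neurons and 440 (4.18%) in glutamatergic-only neurons, and the median log2 ratio over all genes was 0.01. The marker genes of the groups above are among them, so that this comparison reads the same cells in the other direction and is not independent of it.

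Of 27 listed genes known for GABAergic neurons, all of them transcription factors except the antisense RNA Dlx6os1, 16 had enough UMIs to be compared, and of these 11 were higher in GABAergic-only neurons (compared with the 2.75% of all genes), 3 were lower and 2 were not called (median log2 ratio 3.50). Dlx5 had 159 UMIs in GABAergic-only and 1 in glutamatergic-only neurons (log2 ratio 7.89, 5.39 to 13.20), Dlx1 210 and 6 (5.71), Dlx2 231 and 8 (5.43), and Dlx6 was at a log2 ratio of 5.60. The non-coding Dlx6os1, which is read from the strand opposite Dlx6, was at 5.52. Lhx1 had a log2 ratio of 4.48 and Gsx1, a factor of Ghrh-neuron precursors, of 4.10. Isl1, a LIM-homeodomain factor of several ARC neuron types, was at 446 and 60.0 CPM (log2 ratio 2.90, 2.67 to 3.13). The 3 that went against the name of their list were Lhx5 (-2.59, -4.28 to -1.26), the forkhead factor Foxp2 (-1.71, -2.07 to -1.37) and Pax6 (-1.46, -2.32 to -0.68), all of them also used by excitatory neurons elsewhere in the brain.

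Of 34 listed transcription factors known for glutamatergic neurons, 20 were compared, and of these 15 were higher in glutamatergic-only neurons (4.18% of all genes), 3 were lower and 2 were not called (median log2 ratio -2.76). Gbx2 had 1 UMI in GABAergic-only and 78 in glutamatergic-only neurons (log2 ratio -5.71, -11.03 to -3.19), Ebf3 2 and 49 (-4.04) and Pou4f1, a POU factor of habenular neurons, 107 and 1747 (-3.45, -3.75 to -3.17). Neurog2 (-3.42), Ebf1 (-3.41), Fezf1 (-3.23) and Neurod1 (-2.92) followed. Neurod2 and Neurod6 had 38 and 36 UMIs in glutamatergic-only neurons and 0 in the others, which puts the log2 ratio at -3.09 and -3.01 or lower with 3 UMIs as the floor. The 3 that went against the name were Otp (1003 and 68 UMIs, log2 ratio 4.46, 4.11 to 4.84), Tbx3 (2.47, 1.98 to 2.99) and the nuclear receptor Rorb (1.17, 0.70 to 1.65). Otp is a factor of glutamatergic neurons in other hypothalamic nuclei, and Tbx3 of several ARC types.

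**Figure D5:**
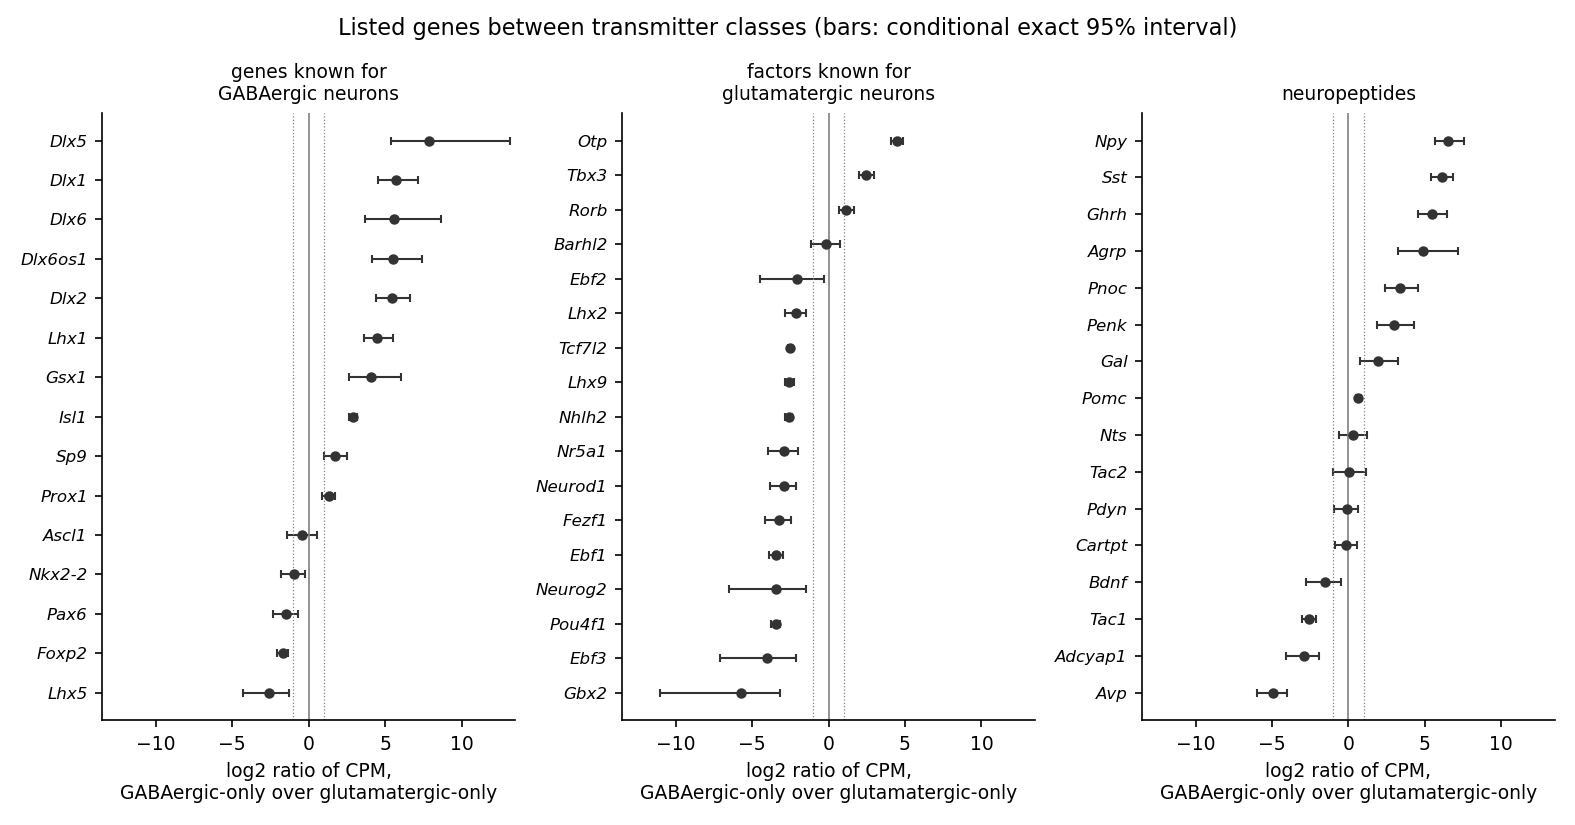
Log2 ratio of CPM between GABAergic-only and glutamatergic-only neurons (x axis, positive where higher in GABAergic-only) for most listed genes (y axis) with at least 20 UMIs over both classes and at least 1 in each. Bars are conditional exact 95% intervals and dotted lines mark a 2-fold difference. In the left panel Dlx5 is at 7.89 and Lhx5 at -2.59, in the middle Otp at 4.46 and Gbx2 at -5.71, and on the right Npy at 6.53 and Avp at -4.94.

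Of 24 listed neuropeptide genes, 16 were compared, and of these 7 were higher in GABAergic-only and 4 in glutamatergic-only neurons (compared with 2.75% and 4.18% of all genes), and 5 were not called (median log2 ratio 0.48). Npy had 679 and 11 UMIs (log2 ratio 6.53, 5.68 to 7.53), Sst 828 and 18 (6.10, 5.43 to 6.86), Ghrh 319 and 11 (5.44, 4.58 to 6.45) and Agrp 59 and 3 (4.88, 3.26 to 7.19). The opioid-family precursors Pnoc (3.39) and Penk (2.97) and galanin, Gal (1.93), were on the same side. Avp (vasopressin) had 10 UMIs in GABAergic-only and 458 in glutamatergic-only neurons (log2 ratio -4.94, -6.01 to -4.05), followed by Adcyap1, encoding PACAP (-2.92, -4.09 to -1.94), Tac1, encoding substance P (-2.56, -3.01 to -2.13), and the growth factor Bdnf (-1.54, -2.77 to -0.47). Pomc, at 259 and 165 CPM, was not called (log2 ratio 0.65, 0.48 to 0.83).

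The other genes of GABA and glutamate metabolism differed little between the classes. The median log2 ratio of the 8 genes of GABA handling that were compared was 0.16, and 7 of them were not called. Abat, which breaks GABA down, had a log2 ratio of 0.98 (0.56 to 1.39), just short of 2-fold. Of 10 genes of glutamate handling, 1 was called (compared with 4.18% of all genes), the glutamate uptake transporter Slc1a2 (38 and 212 UMIs, log2 ratio -1.90, -2.44 to -1.40), with a median of -0.37. Of the other vesicular glutamate transporters, Slc17a8 had 31 UMIs and Slc17a7 had 4 in all neurons.

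Of 3 genes of other transmitters that could be compared, 2 were higher in GABAergic-only neurons and none in glutamatergic-only ones (compared with 2.75% and 4.18% of all genes). Th had 104 and 8 UMIs (log2 ratio 4.28, 3.25 to 5.53) and Slc18a2, the vesicular monoamine transporter, 30 and 2 (4.48, 2.51 to 7.59). Ddc, the next enzyme after Th, was not called (0.82, 0.11 to 1.53). The acetylcholine gene Chat and the glycine transporter Slc6a5 had no UMI in the neurons.

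Outside the lists, the genes whose intervals lay farthest from no difference for GABAergic-only neurons included Cited1, a transcriptional coactivator (354 and 16.0 CPM, log2 ratio 4.46, 4.05 to 4.91), and the homeodomain factor Hmx2 (4.77, 3.75 to 6.01). Those for glutamatergic-only neurons included the nuclear receptor Nr4a2 (33 and 721 UMIs, log2 ratio -3.87, -4.42 to -3.37), the ligand Kitl (-3.43), the synaptic organiser Cbln2 (-3.08) and Nrn1 (-3.24). Among 7222 genes found in at least 5% of neurons, the highest Pearson r over the 4006 neurons was that of Pou4f1 for Slc17a6 (0.228), Dlk1 for Slc32a1 (0.197), Hmx2 for Gad2 (0.177) and Ecel1 for Gad1 (0.167). Otp was among the first 5 for Gad2 (0.138) and Slc32a1 (0.189). These values are low, share the depth of the cells and are given as a description.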

How the data were processed

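The authors deposited raw counts of UMIs per gene and cell barcode from 1 pooled 3′ droplet library, without normalization. The submitters' processing notes name Cell Ranger 2.1.1, STAR 2.4.0, Seurat 2.0 and the build mm10. The 4 runs were treated as 1 sample, because nothing ties a barcode to a run or an embryo. The 6465 barcodes, none of them duplicated, held 26277265 UMIs. Cells were kept by limits in the study's methods: no more than 10% of UMIs from mitochondrial genes, 200 to 4500 genes found, and not over 10 UMIs of the globin Hba-a1. On the deposited counts these limits left more cells than the study states it used, and the reason was not found. The 6351 kept cells held 1748 to 16836 UMIs, with a median of 3338. No doublet caller was used.

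Shares carry exact binomial (Clopper-Pearson) 95% intervals, CPM exact Poisson intervals and log2 ratios conditional exact binomial intervals. The floor for a count of 0 was 3. Co-detection was set against the product of the 2 shares. No p-value is given, since cells of 1 library are not replicates. Thinning used 2167 UMIs, the 10th percentile of kept cells, and groups were not set anew on the thinned counts. The ratio was tested on simulated data for the comparison of the classes: with 200 of 10528 genes changed 4-fold, 95.9% of intervals held the true value, and 98.0% of changed and 0.707% of unchanged genes were called. The simulated sums were Poisson draws, the model that the intervals assume. They hold no further spread between cells, so that these values check the calculation and are not error rates for the real cells.

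Non-neural cells had at least 3 genes of a fibroblast, endothelial, mural or macrophage list and under 2 UMIs of Stmn2. Progenitor cells had at least 3 of Sox2, Hes1, Hes5, Fabp7, Vim, Nes, Slc1a3 and Rax, under 2 UMIs of Stmn2, no other list and, where not stated otherwise, no UMI of Mki67 or Top2a. Pituitary cells had at least 3 genes of a pituitary list and under 2 UMIs of Stmn2. Of the neurons, 69 had 3 or more of these genes. Named genes were the members, the marker genes, up to 10 called genes per list, the 10 ratios per direction with the interval bound farthest from no difference and the 5 genes most like each member. Ddc, Abat, Chat, Slc6a5 and the other uncalled genes were named after their values were seen, and some listed genes that were counted are not reported by name. The members and lists were chosen with earlier results of these data known. The groups that combine markers, or use Nkx2-1, Tbx3, pituitary genes or Stmn2 within markers, and the expected numbers within depth classes or marker sets were added after values were seen. Python 3.11.15, numpy 2.4.6, scipy 1.17.1 and matplotlib 3.10.9 were used. Gene positions are from GENCODE on GRCm38, the assembly called mm10.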

Additional observations from a re-analysis of the deposited data

How the results depend on the processing

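Of 145 values recomputed with other settings, 87 stayed within the counting interval of the main value (for counts of genes, within 1.5 times) and 58 did not. The GABAergic share of single-class neurons crossed 50% in 2 groups, the Pomc neurons and those with no marker, under some of the settings below. The share of GABAergic neurons was 15% with at least 4 UMIs of Stmn2, 2.92% with 2 UMIs of a transmitter gene, 2.92% with 2 GABAergic genes, 7.31% by Slc32a1 alone, 12.1% thinned and 21.3% in neurons at or below the median depth. The share with Slc17a6 was 19.1% with at most 5% mitochondrial UMIs, 15.8% and 20.6% with at least 1 and 4 UMIs of Stmn2, 3.57% with 2 UMIs, 10.9% thinned and 8.79% below that depth. Neurons with both were 0.0250% with 2 UMIs, 0.0749% with 2 GABAergic genes, 0.275% by Slc32a1, 0.403% thinned and 0.649% below that depth. Their ratio to the expected number was 0.239, 0.144 and 0.211 under the first 3 of these, and 0.806 with expected numbers taken within sets of the same markers, a setting chosen after seeing the data.

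The GABAergic share of single-class neurons changed with 2 UMIs of a transmitter gene in the Dlx (87.0%), Otp (85.2%), Fezf1 or Nr5a1 (17.6%) and Gbx2 (0%) groups. With 2 GABAergic genes it was 71.4% (Dlx), 56.6% (Otp), 9.09% (Pomc), 1.17% (Nhlh2), 1.71% (Fezf1 or Nr5a1), 2.63% (Robo3), 0% (Gbx2) and 17.7% (no marker). By Slc32a1 alone it was 83.6% (Dlx), 78.3% (Otp), 21.1% (Pomc), 1.78% (Nhlh2), 2.84% (Fezf1 or Nr5a1), 3.57% (Robo3), 0% (Gbx2) and 32.3% (no marker). Both definitions ask more of the GABAergic class alone. Below that depth it was 100% (Dlx), 97.6% (Otp), 62.5% (Pomc), 0% (Gbx2) and 70.9% (no marker), and thinned 0% (Gbx2). In neurons of 1 group only it was 98.7% (Dlx), 97.0% (Otp), 5.48% (Nhlh2), 4.69% (Fezf1 or Nr5a1) and 3.33% (Robo3). With 2 UMIs of the marker it was 97.8% (Dlx), 97.2% (Otp), 5.41% (Fezf1 or Nr5a1) and 0% (Gbx2). At a 1.5-fold limit, 613 genes were higher in GABAergic-only and 782 in glutamatergic-only neurons. Without the 69 neurons that had 3 or more pituitary genes, a setting chosen after seeing the data, all 14 values stayed within these limits. Where no value shows the cause, the cause was not tested.

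No paired analysis was possible because the 4 runs are of 1 library that the counts do not hold apart. No replicate was left out for the same reason. With 1 UMI in most positive cells, depth limits the class of a single neuron, and a low share is read only beside that of the non-neural cells.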

Other observations

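The 1042 neurons with none of the markers held both classes, with 162 GABAergic-only and 142 glutamatergic-only cells. The genes named here were chosen because they set the 2 classes of these neurons apart most, so that their ratios are a description. Cited1 had 219 UMIs in the GABAergic-only and 4 in the glutamatergic-only cells (log2 ratio 6.00, 4.62 to 7.88). Dlx5 had 57 and 0, Lhx1 45 and 0, Ghrh 50 and 2, and Hmx2 51 and 4. On the other side, Pou4f1 had 1 and 180 UMIs (log2 ratio -7.27, -12.58 to -4.77), Nr4a2 3 and 143, Cbln2 18 and 323, Kitl 3 and 75, and Lhx9, a LIM-homeodomain factor, 9 and 140.

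GABAergic and glutamatergic UMIs in 617 cells with pituitary genes gave 12 cells of each class (1.94%, 1.01 to 3.37%), at a median of 4293 UMIs, which adds a second cell type that should lack these genes. The shares of the 2 classes differed across 4 equal classes of neuron depth: the GABAergic share of single-class neurons was 82.7% in the shallowest, then 61.2%, 34.4% and 22.4% in the deepest, and 81.2, 64.6, 38.5 and 23.5% after thinning.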
